A study of Mus musculus with 6 samples.

Results

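The TGF-beta and activin signalling genes followed here were 10 genes listed by symbol, by a rule that applies no threshold to measured values, although earlier results of these data were known when the list was made. They are the ligand genes Tgfb1, Inhba, Inhbb and Inhbe, the activin inhibitor Fst, and the receptor genes Tgfbr1 and Tgfbr2. The others are the signal transducer Smad3, the inhibitory SMAD gene Smad7 and the target gene Tgfbi. All 10 were present among the 15454 genes of the count table and the 21948 genes of the FPKM table, and all 10 were among the 12411 genes that passed the filter on low counts. The livers came from male C57BL/6 mice aged 8 to 10 weeks with 75% warm hepatic ischemia and reperfusion (I/R). The I/R group received vehicle and the I/R+Rk2 group received ginsenoside Rk2, a saponin from ginseng, 2 days before surgery and again when perfusion began. Per the paper, vehicle and Rk2 were injected intraperitoneally, and the treated livers sequenced came from its high-dose Rk2 group. Each group had 3 livers with 1 RNA-seq library each. Every liver of both groups had undergone I/R, so each difference below is between treated and vehicle livers after injury and not between injured and uninjured tissue. Sham livers were not analysed here.

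TGF-beta and activins are dimeric ligands of the same superfamily. Each brings together type II and type I serine/threonine kinase receptors, which phosphorylate SMAD2 and SMAD3, and these move to the nucleus with SMAD4 and act on target genes. In the liver the pathway is known for limiting hepatocyte growth and for activating stellate cells into matrix-producing cells, and follistatin, the product of Fst, binds activins and keeps them from their receptors.

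The libraries held 16809613 to 35618074 counts, and 3 counts corresponded to 0.0888 to 0.184 CPM, the count scaled to a common library size, well below the level of each of the 10 genes. Replicates were numbered livers, and p-values measure the spread between these samples only. Of the 12411 genes tested with edgeR, 43.9% had an adjusted p below 0.05, which is what "called" means below, with 23.7% lower and 20.3% higher in I/R+Rk2. The labelled tissue was checked with hepatocyte markers, and the 7 hepatocyte markers measured summed to 59119 to 69717 CPM in I/R livers and to 91520 to 113083 CPM in I/R+Rk2 livers. Most of that sum was Alb, for albumin (mean 49227 and 80119 CPM), and of the 7 markers 3 were called higher, 1 (Hnf4a) lower and 3 not called. Markers of infiltrating cells moved with the treatment. All 9 monocyte markers were called lower, and their summed level was 218 to 241 CPM in I/R and 12.1 to 20.5 CPM in I/R+Rk2. Of 10 neutrophil markers 9 were called lower, with sums of 576 to 696 CPM and 108 to 249 CPM. No marker of these lists was at 0 in every library. The part of these cells in the results below was not tested, and in whole liver fewer cells of a type and less RNA per cell cannot be told apart.

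In the mouse genome build GRCm38, which has the coordinates of mm10, Tgfb1 lies at chr7:25687002-25705077, Inhbb at chr1:119415465-119422248, Inhba at chr13:16011851-16031621 and Inhbe at chr10:127348857-127354411. Both Inhbe and its paralog Inhbc are on the minus strand, where Inhbe follows Inhbc, with 1910 bases between the annotated ends of the pair. Fst lies at chr13:114452290-114458951, Tgfbr1 at chr4:47353222-47414931, Tgfbr2 at chr9:116084293-116175360, Smad3 at chr9:63646767-63757994 and Tgfbi at chr13:56609523-56639562. Fst shares exon positions with a non-coding gene, Gm47040, on the other strand, so reads from the pair cannot be told apart without strand. RefSeq upstream windows of GRCm38.p6 were matched for 8 of the 10 genes, in 9 windows, and Fst and Smad7 had none. The bases before 3 genes are printed because they stand for the range found among the set: Tgfb1 had the most GC boxes, Tgfbi carried both a GC box and SMAD core motifs, and Inhba had none of the motifs searched. Capitals mark a GC box (GGGCGG or CCGCCC) or a SMAD core (CAGAC or GTCTG), and each sequence is the plus strand written 5′ to 3′.
Tgfb1, chr7:25686752-25687001: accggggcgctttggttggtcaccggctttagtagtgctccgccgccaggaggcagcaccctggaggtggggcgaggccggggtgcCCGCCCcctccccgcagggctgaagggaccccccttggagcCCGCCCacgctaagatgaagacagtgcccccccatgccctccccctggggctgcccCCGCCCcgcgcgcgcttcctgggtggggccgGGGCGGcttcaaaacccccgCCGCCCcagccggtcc
Tgfbi, chr13:56609336-56609522: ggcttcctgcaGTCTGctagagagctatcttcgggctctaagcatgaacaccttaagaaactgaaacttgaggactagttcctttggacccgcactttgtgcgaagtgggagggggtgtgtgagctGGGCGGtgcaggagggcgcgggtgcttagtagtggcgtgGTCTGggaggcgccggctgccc
Inhba, chr13:16011601-16011850: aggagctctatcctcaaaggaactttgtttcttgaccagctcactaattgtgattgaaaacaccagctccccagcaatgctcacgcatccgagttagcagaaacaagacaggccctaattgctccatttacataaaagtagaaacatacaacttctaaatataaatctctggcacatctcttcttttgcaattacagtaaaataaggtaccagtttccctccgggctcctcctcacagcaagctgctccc

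The Tgfb1 sequence was 75.2% G or C and held 5 GC boxes, of which the nearest ended at position -11 from the start site. The Tgfbi sequence was 59.4% G or C, with 1 GC box and 2 SMAD cores, and the Inhba sequence was 43.2% G or C. A GC box was present before 5 of the 8 genes (Tgfb1, Inhbb, Tgfbr1, Smad3 and Tgfbi) and in 32.7% of all 32851 windows of the same table. A SMAD core was present before 4 genes (Inhbe, Tgfbr1, Tgfbr2 and Tgfbi) and in 42.2% of all windows. The SMAD palindrome GTCTAGAC, the AP-1 motif TGANTCA and the cyclic AMP element TGACGTCA were in none of the 9 windows and in 0.167%, 6.75% and 1.55% of all windows. The C/EBP-ATF element TGATGCAA was found for Inhbe alone among the 8 genes, in a window that overlaps an annotated exon, against 0.792% of all windows. These are letter matches on both strands within 250 bases and are not evidence of binding.

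Of the 10 genes, 7 were called and all 7 were lower in I/R+Rk2, beside 23.7% of all tested genes called lower. Tgfb1, Inhbb, Fst, Tgfbr2, Smad3 and Tgfbi were also more than 2-fold lower, beside 11.4% of all tested genes. In 7 of the 10 the 3 treated livers lay below the 3 vehicle livers, beside 30.3% of all tested genes. Inhba, Inhbe and Smad7 were not called and their groups overlapped. The median log2 fold change of the 10 genes, I/R+Rk2 over I/R, was -1.33, and that of all tested genes was -0.01.

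**Figure D1:**
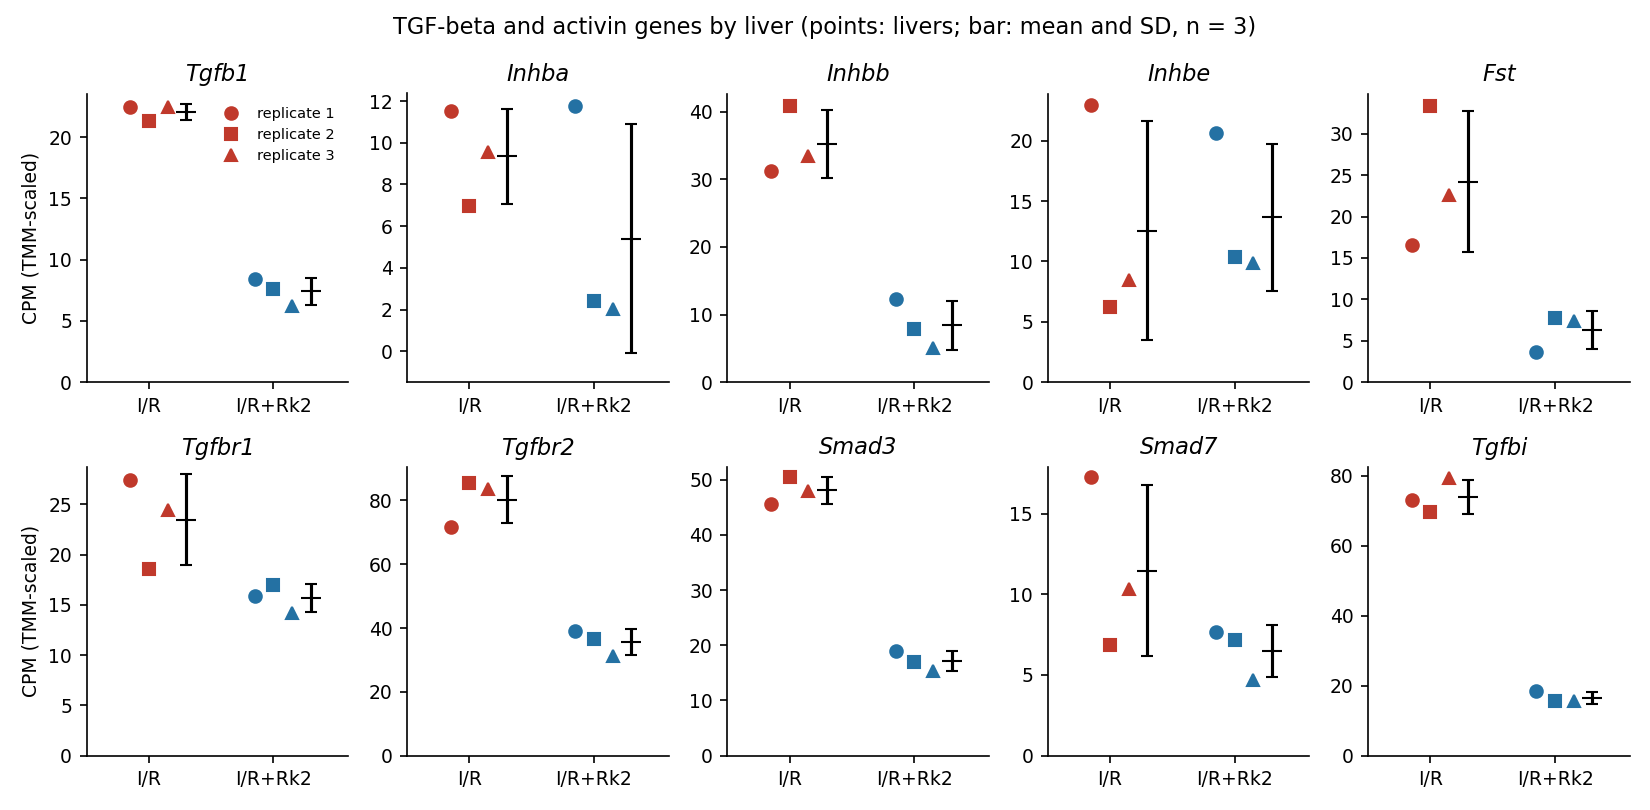
Level of each gene in each liver, in CPM after TMM scaling (linear axes, each with its own range), with symbols for replicates 1, 2 and 3 and a bar for the mean and SD of 3 livers. The 2 groups are apart for Tgfb1, Inhbb, Fst, Tgfbr1, Tgfbr2, Smad3 and Tgfbi, whereas Inhba has 1 treated liver at 11.8 CPM and the other 2 at 2.43 and 2.03 CPM.

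Tgfb1 encodes the TGF-beta 1 ligand, made by macrophages, platelets and other non-parenchymal cells. Its level was 22.5, 21.3 and 22.4 CPM in the I/R livers and 8.45, 7.58 and 6.20 CPM in the I/R+Rk2 livers. The vehicle livers lay close together and every treated liver was below them. Tgfb1 was 2.97-fold lower in I/R+Rk2, with a log2 fold change of -1.57 ± 0.14 (SE, n = 3 per group) and an edgeR adjusted p of 0.000445.

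Inhbb and Inhba encode the beta B and beta A subunits, which form activin B and activin A. Inhbb was at 31.2, 40.9 and 33.4 CPM in I/R and at 12.2, 7.90 and 5.10 CPM in I/R+Rk2. The groups did not overlap, and the gene fell by 2.05 ± 0.29 on the log2 scale (SE, n = 3 per group, edgeR adjusted p = 0.00202), which is 4.15-fold lower. Inhba was at 11.5, 6.99 and 9.57 CPM in I/R and at 11.8, 2.43 and 2.03 CPM in I/R+Rk2. In CPM the first treated liver was the highest of all 6 livers and the other 2 treated livers were the lowest, so the groups overlapped. In FPKM I/R liver 1 was the highest, at 2.39 against 1.89 for the first treated liver, and the groups overlapped too. Its log2 fold change was -0.78 ± 0.63 (SE, n = 3 per group, edgeR adjusted p = 0.348). Without I/R+Rk2 liver 1 the value was -2.06 and the edgeR adjusted p was 0.00211, while Inhba was uncalled in every other alternative. The value was -0.40 without I/R+Rk2 liver 2 and -0.41 without I/R+Rk2 liver 3.

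Inhbe encodes the beta E subunit, which is made mainly by hepatocytes. It was at 22.9, 6.24 and 8.49 CPM in I/R and at 20.7, 10.4 and 9.89 CPM in I/R+Rk2. In each group liver 1 was the highest and stood apart from the other 2, and the groups overlapped. The log2 fold change of 0.13 ± 0.51 (SE, n = 3 per group, edgeR adjusted p = 0.851) had no stable direction, running from -0.30 without I/R+Rk2 liver 1 to 0.90 without I/R liver 1.

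Fst was at 16.6, 33.4 and 22.6 CPM in I/R and at 3.70, 7.79 and 7.43 CPM in I/R+Rk2. The vehicle livers were spread over a wide range, yet the lowest of them was above the highest treated liver. Fst was 3.84-fold lower in I/R+Rk2, with a log2 fold change of -1.94 ± 0.35 (SE, n = 3 per group) and an edgeR adjusted p of 0.00471. The inhibitor and a subunit of the activin B that it binds were both lower in the treated livers.

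Tgfbr2 and Tgfbr1 encode the type II and type I receptors that bind TGF-beta. Tgfbr2 was at 71.8, 85.5 and 83.5 CPM in I/R and at 39.1, 36.5 and 31.2 CPM in I/R+Rk2. It was 2.25-fold lower with no overlap of livers, and the log2 fold change was -1.17 ± 0.12 (SE, n = 3 per group, edgeR adjusted p = 0.000661). With the transcript-length trend removed the value was -0.79, which is less than 2-fold, and the call held (edgeR adjusted p = 0.00338). Tgfbr1 was at 27.5, 18.5 and 24.4 CPM in I/R and at 15.8, 17.0 and 14.2 CPM in I/R+Rk2. The second vehicle liver was only a little above the treated livers. Tgfbr1 was 1.49-fold lower (log2 fold change -0.58 ± 0.16, SE, n = 3 per group, edgeR adjusted p = 0.0243). That call was lost without I/R liver 1 (adjusted p = 0.0761), without I/R liver 3 (0.0718) and without I/R+Rk2 liver 3 (0.0727), and with the transcript-length trend removed the value was -0.24 (edgeR adjusted p = 0.219).

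Smad3 encodes the receptor-activated transducer of TGF-beta and activin signals, and Smad7 the inhibitory SMAD that blocks the type I receptor and is itself a target of the pathway. Smad3 was at 45.7, 50.5 and 48.0 CPM in I/R and at 19.0, 16.9 and 15.4 CPM in I/R+Rk2. Livers within each group were close, the groups were far apart, and the gene was 2.81-fold lower (log2 fold change -1.49 ± 0.10, SE, n = 3 per group, edgeR adjusted p = 0.00024). Smad7 was at 17.3, 6.83 and 10.3 CPM in I/R and at 7.65, 7.19 and 4.67 CPM in I/R+Rk2. The second vehicle liver lay among the treated livers. Its log2 fold change of -0.80 ± 0.35 (SE, n = 3 per group) did not pass the test (edgeR adjusted p = 0.0999), and it ran from -0.38 without I/R liver 1 (edgeR adjusted p = 0.313) to -1.07 without I/R liver 2 (0.034).

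Tgfbi encodes a secreted matrix protein named for its induction by TGF-beta. It was at 73.1, 69.7 and 79.3 CPM in I/R and at 18.6, 15.5 and 15.6 CPM in I/R+Rk2. It was 4.47-fold lower, with a log2 fold change of -2.16 ± 0.11 (SE, n = 3 per group, edgeR adjusted p = 0.000198). This was the lowest fitted value of the 10, though Inhbb and Fst each came within 1 of their own, larger SEs of it (0.29 and 0.35). Tgfbi is also made by macrophages. In the same livers the median log2 fold change was -4.36 for monocyte markers and -0.46 for markers of Kupffer cells. The part of these cells in the Tgfbi value was not tested.

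**Figure D2:**
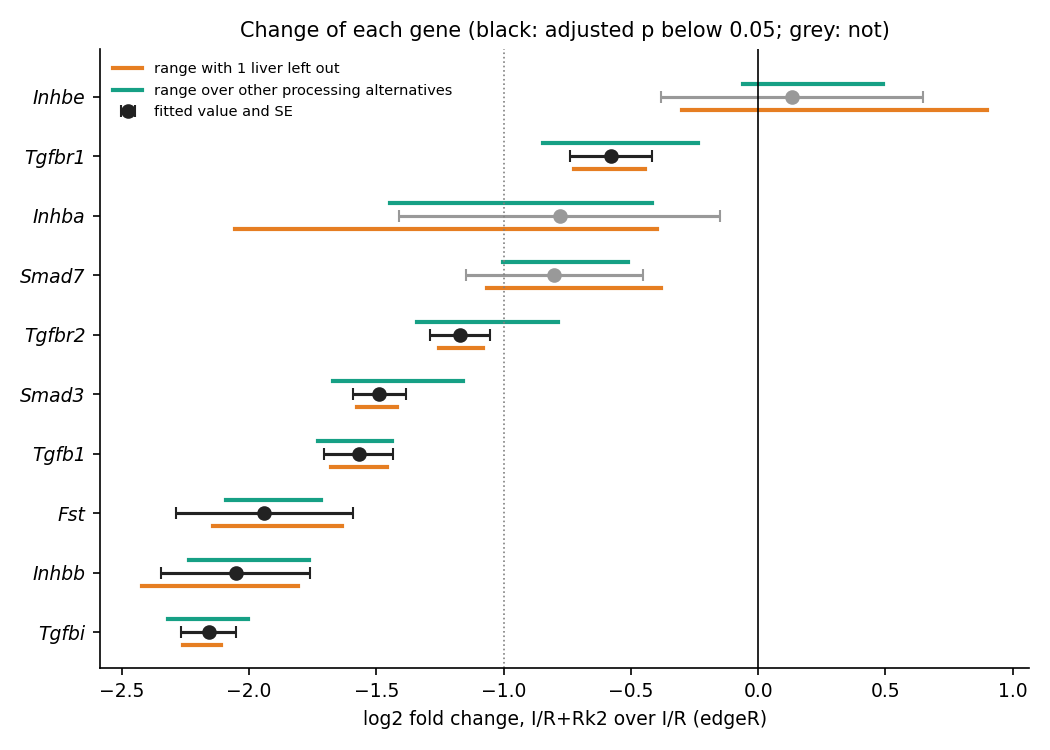
Fitted log2 fold change of each gene, I/R+Rk2 over I/R, with its SE (n = 3 livers per group, dotted line at a 2-fold decrease), and bars for the range when 1 liver is left out and the range over the other processing alternatives. Tgfbi lies at -2.16 with short bars, while the bars of Inhbe cross 0 and those of Inhba reach -2.06.

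Levels can be compared between genes in FPKM, which is per length of transcript. In I/R livers Tgfbi had the highest mean, 27.4 FPKM, followed by Tgfbr2 (11.7 FPKM), Tgfb1 (10.6 FPKM), Fst (10.1 FPKM), Smad3 (9.69 FPKM) and Inhbb (8.17 FPKM). Tgfbr1 (4.65 FPKM), Smad7 (3.05 FPKM), Inhbe (2.41 FPKM) and Inhba (1.81 FPKM) came after them. In this order the livers of neighbouring genes overlapped except between Tgfbi and Tgfbr2 and between Inhbb and Tgfbr1. In I/R+Rk2 livers the order was Tgfbi (5.50 FPKM), Tgfbr2 (4.60 FPKM), Tgfb1 (3.31 FPKM), Smad3 (2.99 FPKM), Tgfbr1 (2.52 FPKM), Fst (2.38 FPKM), Inhbe (2.29 FPKM), Inhbb (1.77 FPKM), Smad7 (1.41 FPKM) and Inhba (0.831 FPKM), and of these neighbours only Tgfbr2 and Tgfb1 did not overlap. Inhbb was above Inhbe by mean FPKM in the I/R group and below it in the I/R+Rk2 group.

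Ratios within 1 liver do not depend on the scaling factor of its library, apart from a prior of 0.5 counts, and 5 pairs were compared by the log2 ratio of CPM. Inhbe stood to Inhbb at -0.44, -2.71 and -1.97 in I/R and at 0.76, 0.39 and 0.95 in I/R+Rk2. Every treated liver had more Inhbe than Inhbb and every vehicle liver less, and the mean difference was 2.41 (exact two-sided permutation test, p = 0.1, adjusted over the 5 ratios 0.25). With 3 livers against 3, 0.1 is the smallest p that this test can give. The ratio of Tgfbr1 to Tgfbr2 was -1.38, -2.20 and -1.77 in I/R and -1.30, -1.10 and -1.14 in I/R+Rk2. These groups did not overlap either, with a difference of 0.61 (exact two-sided permutation test, p = 0.1, adjusted 0.25). Taken from FPKM values the groups overlapped, and the difference was 0.49 (exact permutation p = 0.2). The ratio of Smad3 to Smad7 had a mean of 2.17 ± 0.74 in I/R and 1.42 ± 0.26 in I/R+Rk2 (SD, n = 3, exact permutation p = 0.2, adjusted 0.333), and its groups overlapped. The ratios of the activin subunits to their inhibitor had wide, overlapping ranges. Inhba to Fst ran from -2.25 to -0.52 in I/R and from -1.86 to 1.66 in I/R+Rk2, and Inhbb to Fst from 0.29 to 0.91 and from -0.54 to 1.72 (exact permutation p = 0.8 for each). In both, I/R+Rk2 liver 1 was the highest, having the highest Inhba, the highest Inhbb and the lowest Fst of the treated livers.

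**Figure D3:**
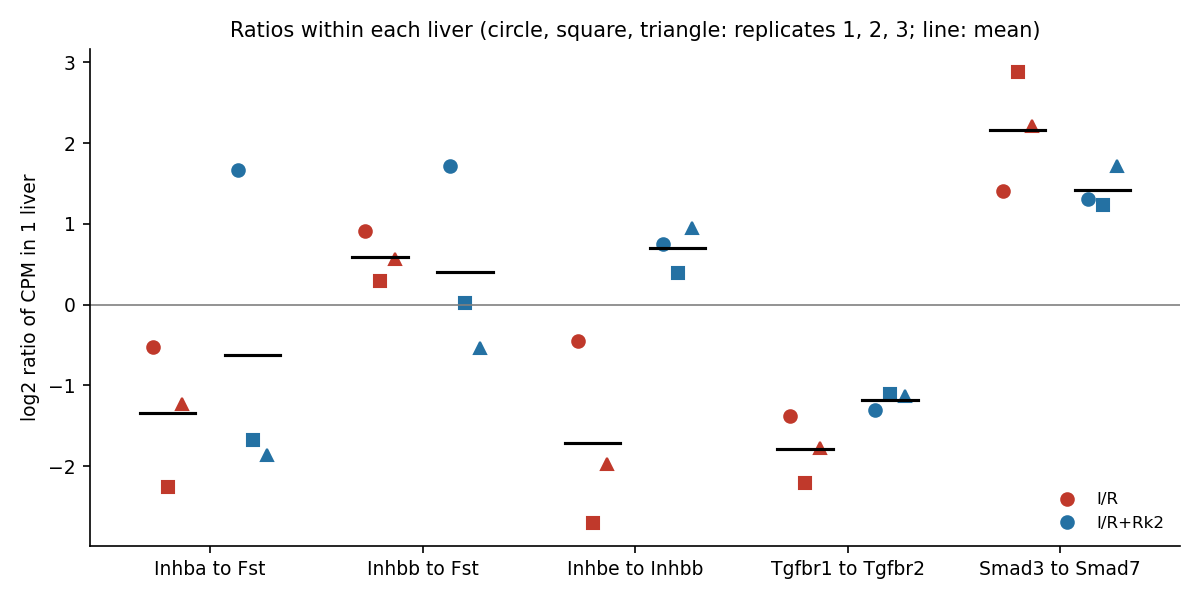
Log2 ratio of CPM of 2 genes within each liver, with symbols for replicates 1, 2 and 3 and a line for the group mean of 3 livers. For Inhbe to Inhbb the vehicle livers lie below 0 (mean -1.71) and the treated livers above 0 (mean 0.70), whereas for both ratios to Fst the groups overlap.

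The rest of the pathway was described with 8 lists ordered by role, holding 98 further genes. Of these, 93 were in the count table and 87 passed the filter on low counts. Among the 87 genes 30 were called lower and 7 higher, and the median log2 fold change was -0.40. The background was 23.7% lower and 20.3% higher with a median of -0.01. With library size alone as scaling the split was 37 lower and 4 higher, and with the transcript-length trend removed it was 24 lower and 12 higher. The background moved in the same directions. Of all 12411 tested genes, 3481 were called lower and 1320 higher with library size alone. With the transcript-length trend removed 2131 were called lower and 3330 higher. Without I/R liver 3 the number called dropped to 24 (21 lower and 3 higher). The number called among all tested genes dropped as well, from 5454 of 12411 to 3946 of 12580.

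Among 4 further ligands of the TGF-beta and activin branch none was called lower and 1 was called higher, with a median of 0.22. That gene was Inhbc, the hepatocyte beta C subunit next to Inhbe, at 26.1 ± 4.52 CPM in the I/R livers and 46.4 ± 12.6 CPM with Rk2 (SD, n = 3). Its log2 fold change was 0.83 ± 0.21 (SE, edgeR adjusted p = 0.0182). The call was lost without I/R liver 2 (adjusted p = 0.0557) and without I/R liver 3 (0.0509), with library size alone (0.0547), and in the 3 limma fits of FPKM values (0.0558 to 0.107).

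Of 8 BMP ligands 3 were called lower and 1 higher, with a median of -0.63. Bmp10 was 3.11-fold lower (5.30 ± 0.62 to 1.70 ± 0.05 CPM, SD, n = 3, edgeR adjusted p = 0.000872) and Gdf2, which encodes BMP9, was 1.87-fold lower (edgeR adjusted p = 0.00776). These ligands signal to endothelial cells through ALK1. Bmp4 had a log2 fold change of -0.70 ± 0.21 (SE, edgeR adjusted p = 0.0296), lost without I/R liver 1 (0.0895) and without I/R+Rk2 liver 2 (0.0889) or 3 (0.0775).

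Genes for the latency and activation of TGF-beta had 5 of 12 called lower and 1 higher, with a median of -0.47. Thbs1 encodes thrombospondin 1, which can release TGF-beta from its latent form. It was at 403 ± 27.7 CPM in the I/R livers and 61.9 ± 24.2 CPM with Rk2 (SD, n = 3), 6.51-fold lower (log2 fold change -2.70 ± 0.26, SE, edgeR adjusted p = 0.000585). Nrros, which tethers latent TGF-beta to myeloid cells, was 3.37-fold lower (12.8 ± 1.15 to 3.78 ± 1.69 CPM, edgeR adjusted p = 0.00332). Itgb5, the beta 5 integrin subunit, was 1.58-fold higher (38.1 ± 2.67 to 60.1 ± 7.70 CPM, edgeR adjusted p = 0.00469), and this call was lost in all 3 limma fits of FPKM values (adjusted p 0.0599 to 0.0689).

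Of 9 further receptors 3 were called lower and none higher, with a median of -0.23 that became 0.08 with the transcript-length trend removed. In that setting the median of all tested genes was 0.14, so the list stayed below it. Acvr1b, the type I receptor of activin, was at 30.9 ± 1.89 CPM in the I/R livers and 12.3 ± 3.13 CPM with Rk2 (SD, n = 3), 2.50-fold lower (log2 fold change -1.32 ± 0.19, SE, edgeR adjusted p = 0.00198). Acvr2a, a type II receptor of activin, had a smaller log2 fold change of -0.57 ± 0.19 (SE, edgeR adjusted p = 0.0446). It was called in only 7 of 17 alternatives, and was lost without I/R liver 1 or 3 and without I/R+Rk2 liver 2 or 3 (adjusted p 0.0953 to 0.14). Its exons overlap Orc4 on the other strand.

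Of 19 other SMADs and intracellular regulators 6 were called lower and 1 higher, with a median of -0.45. Tgif1, a corepressor of SMAD complexes, was 2.07-fold lower (38.9 ± 3.69 to 18.8 ± 1.06 CPM, SD, n = 3, edgeR adjusted p = 0.000625). Zfyve16, an endosomal SMAD-binding protein, was 2.60-fold lower (edgeR adjusted p = 0.00153) and Nedd4l, a ubiquitin ligase for SMAD proteins, 1.74-fold lower (edgeR adjusted p = 0.00075). These 3 genes were called in every alternative in which they were tested.

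Of 11 extracellular antagonists and decoys besides Fst 3 were called lower and 1 higher, and the median of -0.26 became 0.07 with the transcript-length trend removed. Dcn, the proteoglycan decorin that binds TGF-beta, was at 104 ± 17.9 CPM in the I/R livers and 68.2 ± 0.83 CPM with Rk2 (SD, n = 3), 1.53-fold lower (edgeR adjusted p = 0.009). Fstl1, related to follistatin, was 1.57-fold lower (edgeR adjusted p = 0.014), and lost its call without I/R liver 3 (0.052) and without I/R+Rk2 liver 2 (0.0527), and with the transcript-length trend removed (0.0852). Chrd, the BMP antagonist chordin, had a log2 fold change of 0.82 ± 0.28 (SE, edgeR adjusted p = 0.0494). The Chrd call held in only 5 of 15 alternatives. It was lost without I/R liver 1 (0.127) or 3 (0.152) and without any of the 3 treated livers (0.0701 to 0.138), and its exons overlap those of Thpo on the other strand.

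TGF-beta target genes, the largest list, had the most calls, 11 of 22 lower and 1 higher, with a median of -0.60. Beside them, 23.7% of all tested genes were called lower and 20.3% higher. The targets did not all fall, since 17 had a fitted value below 0 and 5 above. Past the 2-fold limit were 7 lower and 1 higher, beside 1420 lower and 393 higher of all 12411 tested genes. Tgm2, the crosslinking enzyme transglutaminase 2, was 3.29-fold lower (599 ± 62.2 to 182 ± 36.5 CPM, SD, n = 3, edgeR adjusted p = 0.000548), with exons that overlap Rprd1b on the other strand. Thbs1 belongs to this list too.

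Of 6 BMP target genes 1 was called lower and 1 higher, with a median of 0.20. Id2 had a log2 fold change of 0.58 ± 0.09 (SE, 130 ± 7.60 to 194 ± 12.7 CPM, edgeR adjusted p = 0.0028), lost in the limma fits of FPKM values (adjusted p 0.0852 to 0.152). Id3 had a log2 fold change of -0.47 ± 0.16 (SE, edgeR adjusted p = 0.0456) and was called in 9 of 17 alternatives, losing the call without any of the 3 I/R livers (0.0857 to 0.124) and without I/R+Rk2 liver 2 (0.144) or 3 (0.125).

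**Figure D4:**
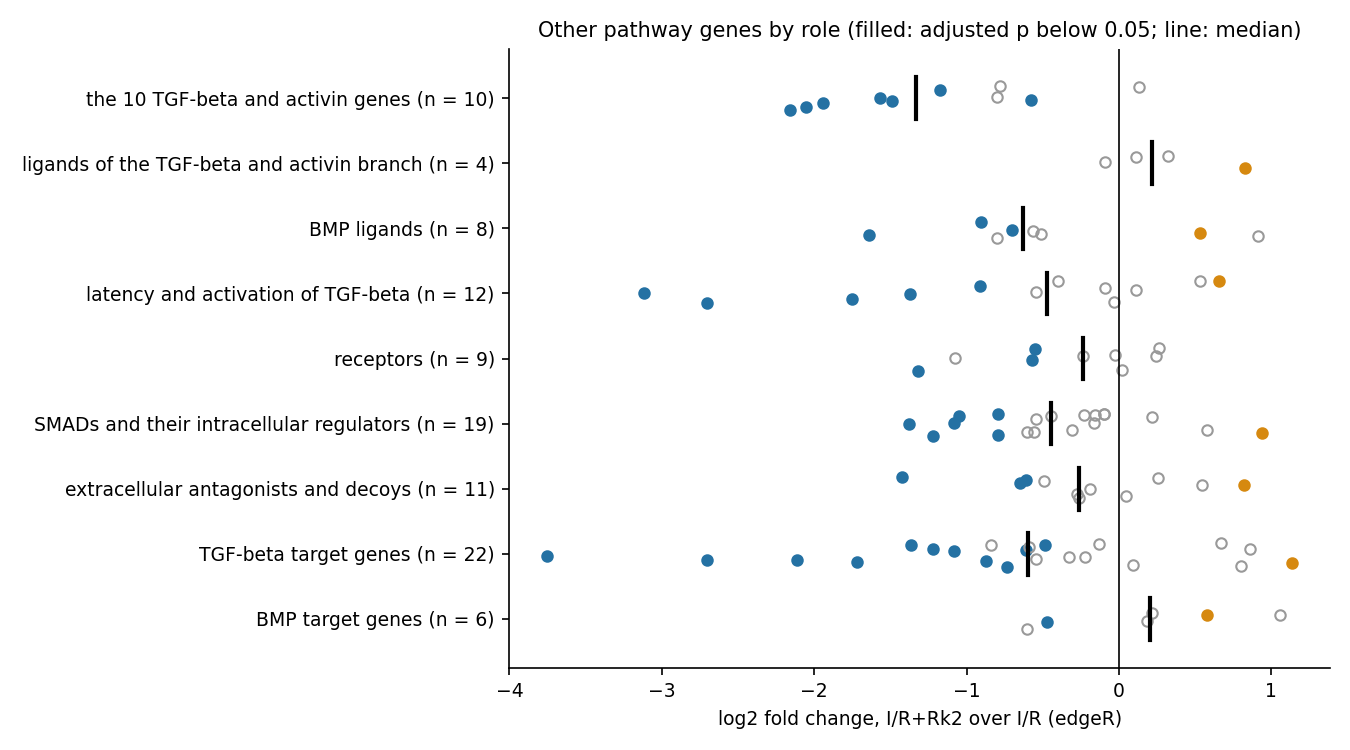
Log2 fold change, I/R+Rk2 over I/R, of the 10 genes and of the other tested genes of the pathway by role, filled where the edgeR adjusted p was below 0.05, with a line at each median. The median of the 10 genes is -1.33, and of the 8 lists the BMP ligands (-0.63) and the TGF-beta target genes (-0.60) have the lowest medians.

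Cell type markers were read in the same livers, and they do not separate the number of cells from the RNA per cell. The counts of markers called stand beside 23.7% of all tested genes called lower and 20.3% called higher. Monocyte markers had a median log2 fold change of -4.36 and neutrophil markers -2.11. Among 10 Kupffer cell markers, for the resident macrophages, 2 were called lower and none higher, with a median of -0.46 and sums of 89.8 to 139 CPM in I/R and 73.6 to 88.8 CPM in I/R+Rk2. Of 11 hepatic stellate cell markers 4 were called lower and none higher, with a median of -0.24 and sums of 152 to 177 CPM and 109 to 123 CPM. Sinusoidal endothelial markers were split, 3 lower and 3 higher of 10, with overlapping sums of 232 to 246 CPM and 198 to 246 CPM. Of 7 cholangiocyte markers 4 were called lower, with sums of 174 to 239 CPM and 86.2 to 122 CPM. Most of that sum was Spp1 (mean 162 and 70.6 CPM), and Krt19, Krt7 and Sox9 were not called. Of 6 platelet markers 1 was called higher and none lower, at sums of 7.61 to 13.4 CPM and 11.5 to 15.8 CPM. T and NK cell markers were near the detection limit, with 1 of 8 tested. The summed level of the 10 TGF-beta and activin genes was 340 to 342 CPM in I/R and 112 to 157 CPM in I/R+Rk2. The part that these cell types have in the fall of Tgfb1, Tgfbi, Inhbb, Fst, Tgfbr2 and Smad3 was not tested.

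**Figure D5:**
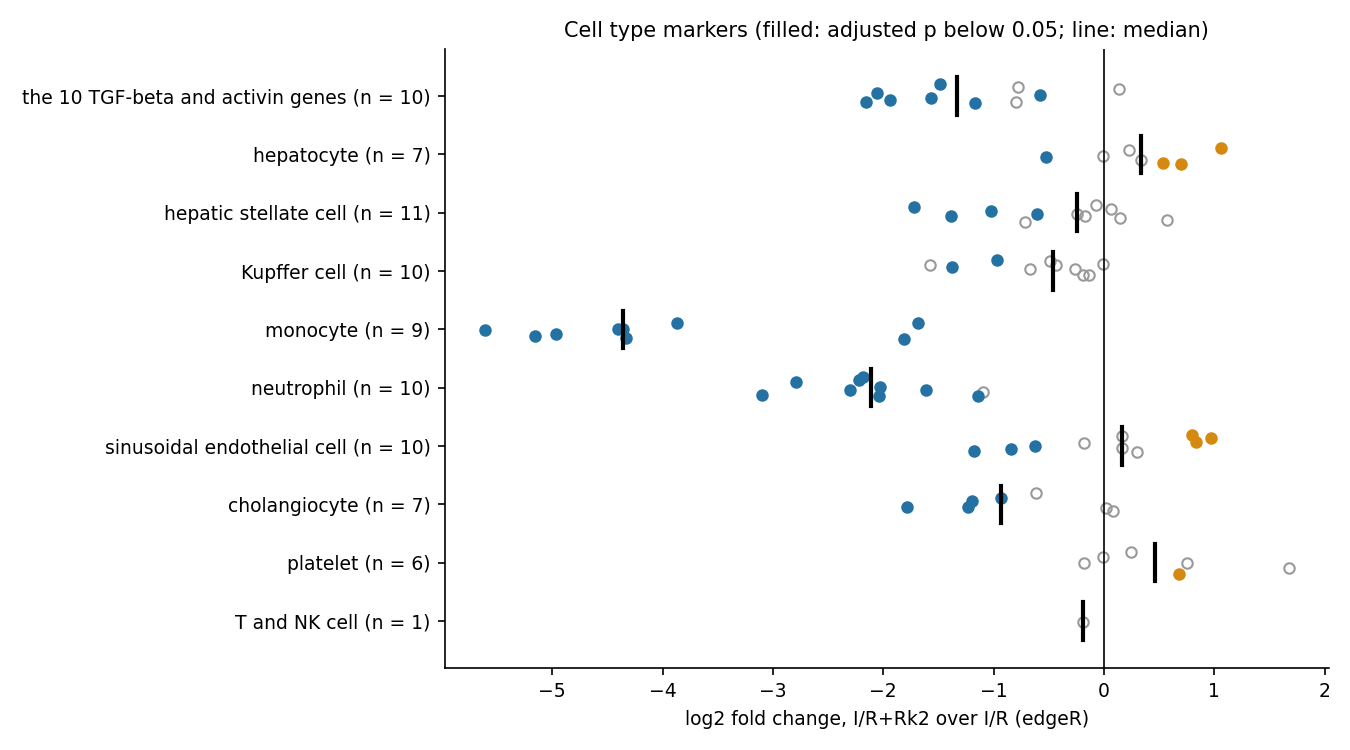
Log2 fold change, I/R+Rk2 over I/R, of the 10 genes and of the markers of 9 cell types, filled where the edgeR adjusted p was below 0.05, with a line at each median. Monocyte (median -4.36) and neutrophil markers (-2.11) lie further to the left than the 10 genes (-1.33), while the Kupffer cell (-0.46) and stellate cell (-0.24) medians lie closer to 0.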

How the data were processed

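Livers of 3 vehicle (I/R) and 3 Rk2-treated (I/R+Rk2) mice were profiled by RNA-seq, from 250 ng of total RNA each. Per the labels, reads were checked with FastQC 0.11.5, aligned to mm10 with HISAT2 2.2.1 and assembled with StringTie 1.3.3. The counting step, annotation and strand setting are not given in the sources used here. The authors deposited unnormalized counts for each gene, which are whole numbers, and a table of FPKM values, which are counts scaled by library and transcript length. The depth was 16809613 to 35618074 counts per library.

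The counts were tested with edgeR 4.0.16 in R 4.3.3 (TMM scaling, default filter on low counts, quasi-likelihood test, no covariate), with Benjamini-Hochberg adjustment over all 12411 tested genes. A gene was called at an adjusted p below 0.05, and the study's fold limit of 2 was applied in addition. The SE of a log2 fold change was derived from the test, as its absolute value over the square root of the quasi-likelihood F statistic. FPKM values served for levels between genes and for limma 3.58.1 fits. Ratios were compared by exact permutation tests (SciPy 1.17.1) with a prior of 0.5 counts. All 10 genes were named, and from each pathway list at most 3 others, those with the smallest p among genes called, without overlap between groups and with a mean of at least 20 counts in the higher group. A gene that this rule names is not reported here. The 10 genes and all lists were chosen with earlier results of these data known. Alternatives were other scalings, filters, DESeq2 1.42.0, a replicate block, removal of the trend with transcript length, FPKM fits and leaving out each liver. The edgeR fit was tested on simulated counts in which few genes changed, equally in both directions. That setting differs from these data, in which many genes were called, so it does not test the scaling under such conditions. Positions are from the GENCODE annotation of GRCm38, upstream sequences from RefSeq GRCm38.p6.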

Additional observations from a re-analysis of the deposited data

How the results depend on the processing

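Tgfb1, Inhbb, Fst, Tgfbr2, Smad3 and Tgfbi were called lower in all 17 alternatives of the fit, and Tgfbr1 in 12 of 17. With the transcript-length trend removed 5 of the 10 genes passed the 2-fold limit, Tgfbr2 no longer doing so. With library size alone as scaling the median of all genes moved to -0.17, and with the transcript-length trend removed to 0.14, and in the limma fits of FPKM values at or above a mean of 1 it was -0.12 or -0.15 by pseudocount. Relative to these medians the log2 fold changes were -1.56 and -1.62 for Tgfb1, -2.03 and -1.90 for Inhbb, -1.92 and -1.95 for Fst, -1.15 and -0.93 for Tgfbr2, -1.47 and -1.30 for Smad3, -2.15 and -2.14 for Tgfbi, and -0.58 and -0.38 for Tgfbr1. Inhbe was -0.059 when scaled by library size and turned negative on leaving out I/R liver 2 (-0.19), I/R liver 3 (-0.08) or I/R+Rk2 liver 1 (-0.30), against 0.90 without I/R liver 1.

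Same-numbered livers had correlations of their deviations from the group means of -0.06, 0.0052 and -0.06, which show no pairing across all genes. With 3 livers per group these values cannot exclude a shared factor, and the labels do not say what a replicate number marks. With the replicate number as a block 6 of the 10 genes were called, Tgfbr1 having an adjusted p of 0.0548, and 4713 of all genes and 33 of the other pathway genes were called.

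In limma fits of log2(FPKM + 1), 901 genes passed the adjusted p and 2-fold limits with a filter and 921 without, against 1813 in the counts. With a pseudocount of 0.1 in place of 1 and the same filter 1378 passed, so the pseudocount accounts for part of the gap, and the cause of the rest was not tested.

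With 1 liver left out, 6 to 8 of the 10 genes were called and 6 to 7 passed the 2-fold limit, 24 to 41 other pathway genes were called, 3933 to 5459 of all genes were called and 1543 to 2012 passed the 2-fold limit. The difference in the log2 ratio stayed between 1.91 and 3.04 for Inhbe to Inhbb, 0.40 and 0.81 for Tgfbr1 to Tgfbr2, and -1.13 and -0.39 for Smad3 to Smad7. It ran from -0.43 (without I/R+Rk2 liver 1) to 1.33 for Inhba to Fst, and from -0.85 to 0.28 (without I/R+Rk2 liver 3) for Inhbb to Fst.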
